A study of Caenorhabditis elegans with 24 samples.

Results

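The genes described here are 39 Caenorhabditis elegans genes that act in the growing oocyte, in the eggshell and in germ granules, taken by symbol from a fixed list of the 20447 genes in the files. They fall into 7 sperm-egg interaction and egg activation genes, 7 eggshell genes, the yolk receptor gene rme-2, the Notch receptor gene glp-1, 14 RNA regulators of the oocyte and early embryo, 5 germ granule genes, and 4 genes of oocyte storage granules and Y-box proteins. The study measured total RNA by RNA sequencing and ribosome-protected fragments (footprints) by ribosome profiling in whole adult worms. Wild type worms of the N2 strain were compared with noNSUN worms, a quadruple mutant of the enzymes that place 5-methylcytosine (m5C) in RNA. In 3 of the enzyme genes a catalytic cysteine was changed to alanine, by the alleles mj457 of nsun-4, mj458 of nsun-2 and mj473 of nsun-1, and nsun-5 carries the deletion tm3898. Worms of each genotype were grown at 20 °C and then kept at 20 °C or exposed to heat shock at 27 °C, with 3 replicates of each of the 4 groups and both assays made from each lysate. The question was whether loss of m5C changes RNA levels or translation, at rest or in the heat.

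The hermaphrodite germline makes oocytes continuously in the adult, and each oocyte is loaded with messenger RNA that the embryo will use before it transcribes its own genome. Many of these messages are held back from translation by RNA-binding proteins that bind the 3′ untranslated region (UTR), such as the STAR protein GLD-1, Pumilio-type PUF proteins and the zinc finger proteins OMA-1 and OMA-2. The eggshell is assembled after fertilization from chitin, chondroitin proteoglycans and the permeability barrier proteins. Germ granules (P granules) are condensates of RNA and protein, built on PGL proteins and GLH helicases, that mark the germ cell lineage.

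All of the values below come from whole worms, so fewer germ cells and less RNA per germ cell cannot be told apart. Counts on genes summed to between 1918731 and 3412334 per RNA library (median 2715851), and to between 22761 and 396184 per footprint library (median 61178). The 39 genes together took 1.84% to 3.21% of the RNA counts and 1.89% to 2.79% of the footprint counts. Levels are given as CPM, read counts scaled to a common library size. A floor of 3 counts is worth 0.879 to 1.56 CPM in RNA and 7.57 to 132 CPM in footprints, so the footprint values of low genes rest on few counts. These floors cover counting error only. RNA of nsun-5, the only enzyme gene with a deletion, was lower in noNSUN than in wild type at 20 °C (10.6 to 13.3 against 18.5 to 25.1 CPM) and overlapped narrowly at 27 °C (12.3 to 16.2 against 15.7 to 21.4 CPM). The point mutations are not visible in counts. The label of adult worms was checked against marker lists: the 11 intestine markers summed to 50028 to 99841 CPM, the 7 body wall muscle markers to 4344 to 9256 CPM, and the 33 sperm markers to only 3.59 to 10.4 CPM, with 12 of these at 0 in every RNA library. One lysate stood apart. In RNA, wild type 20 °C replicate 1 had the lowest sum over the 39 genes (18519 CPM, against a highest of 33087 CPM), the highest muscle sum (9256 CPM, at most 6232 CPM elsewhere) and the lowest intestine sum. Its footprints also had the lowest sum over the 39 genes (19251 CPM) and the highest muscle sum (9482 CPM, at most 7948 CPM elsewhere). Their intestine sum (59104 CPM) was not the lowest. The RNA results that change without this replicate are given both ways, as are the main footprint results.

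To show the sequence that many oocyte messages share, the 200 bases after the stop codon were searched on the sense strand for TACTCA or TACTAA, a hexamer of the type bound by STAR proteins such as GLD-1. It was present in 14 of the 39 genes (35.9%) and in 900 of 10677 genes (8.43%). On the other strand it was found in 2 of the 39 and in 6.74% of genes. The 14 were egg-1, egg-2, egg-4, egg-5, egg-6, cbd-1, cpg-1, rme-2, oma-1, oma-2, mex-5, mex-6, spn-4 and meg-1. Sites of 11 of them are shown, and those of egg-4, egg-5 and egg-6 are not. Coordinates are those of the genome assembly WBcel235. Each site is given on the strand of the gene, 5′ to 3′, with the hexamer in capitals. All 11 sites lie in annotated 3′ UTRs.
egg-1 (chrIII:5730024-5730049, + strand): gatgttttaaTACTAAatcccactaa
egg-2 (chrIII:7058567-7058592, - strand): aattgttatcTACTAAtttgtaaaac
cbd-1 (chrIV:11377410-11377435, + strand): tctttacatgTACTAActttattgca
cpg-1 (chrIII:4491275-4491300, + strand): atcaaatgccTACTCAtcccagtgcc
rme-2 (chrIV:5473094-5473119, + strand): actacaaaatTACTAAatcagatgtc
oma-1 (chrIV:8890578-8890603, + strand): gtgtcccccaTACTAActaataatgc
oma-2 (chrV:8030975-8031000, + strand): ttatgtcccaTACTAActataataac
mex-5 (chrIV:13355692-13355717, + strand): tttcatactcTACTAAtttcgaagta
mex-6 (chrII:9526012-9526037, + strand): aaaaatacttTACTAAtttaaaagta
spn-4 (chrV:6783607-6783632, - strand): attttatttcTACTAActgcgtgttt
meg-1 (chrX:13927374-13927399, - strand): atttttaccaTACTAAccaatttcac
The hexamer began 11 bases after the stop codon in egg-1 and 159 bases after it in mex-5. The paralogues oma-1 and oma-2 carried it at 56 and 65 bases, and mex-5 and mex-6 at 159 and 147 bases. A looser motif of the PUF type, TGTNNNAT, was present in 23 of the 39 genes (59%) and in 42.0% of all genes, with 15 of the 39 and 25.1% of genes holding it on the other strand, and in 1 of the 39 it overlapped the STAR-type hexamer. A match is a description of the letters in this window, and binding was not measured.

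Translation differed widely among the 39 messages. Footprints per RNA, both per length and pooled over the 12 lysates, spanned 49.7-fold among the genes with more than 10 footprint counts. The median of 10685 genes was 1.06 on this scale, a ratio of CPM per kb of coding sequence to CPM per kb of exons. Of the 39 genes, 28 lay below that median and 11 above it, and their own median was 0.831. Pooling weights each lysate by its depth, and noNSUN 27 °C replicate 2 was the deepest in footprints, with 396184 counts. Pooled values differ from the median of single lysates in either direction, with 0.586 pooled and 0.848 as the median for pie-1. For oma-2 they were 0.478 and 0.368.

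**Figure D1:**
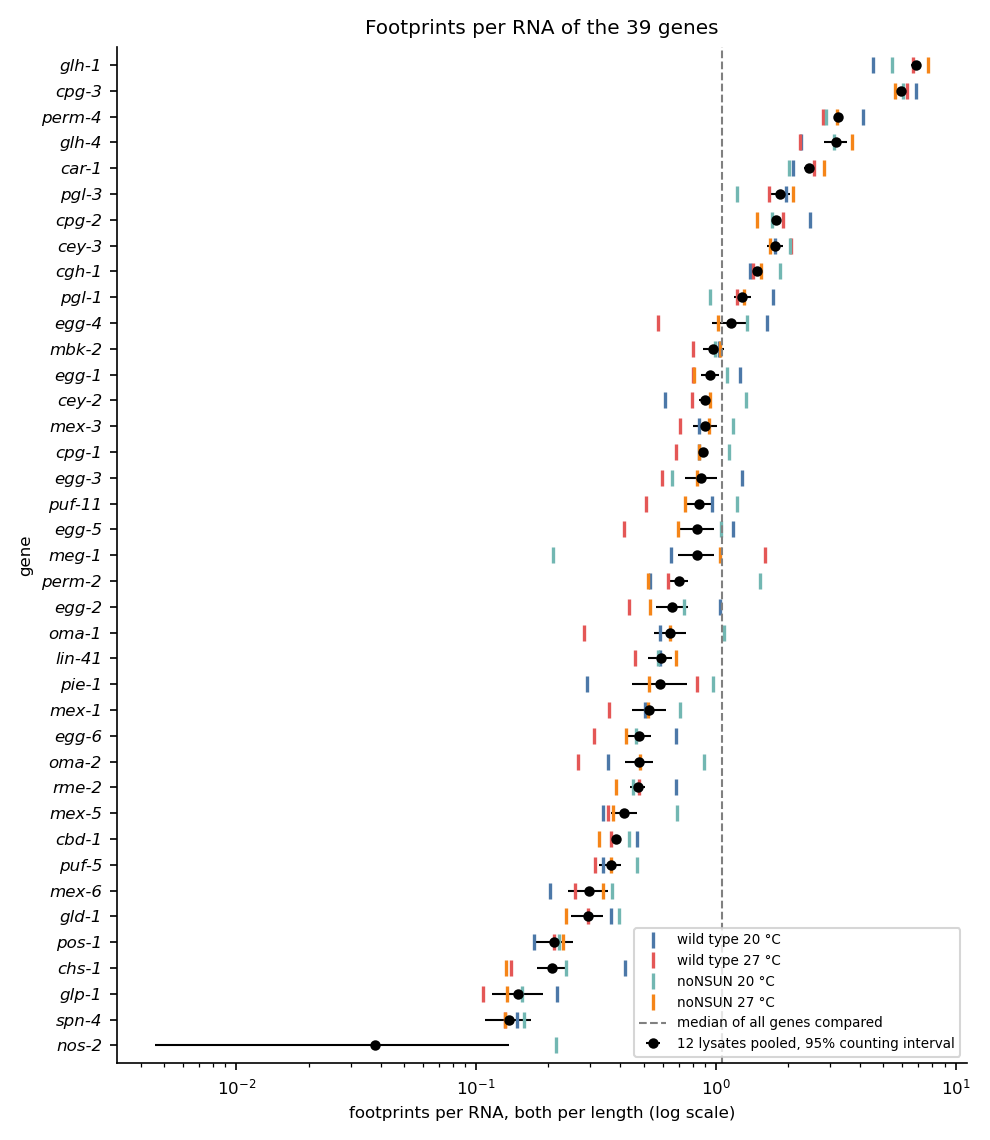
Footprints per RNA (per length, log axis) for each of the 39 genes, with the value pooled over 12 lysates and its 95% counting interval (black) and the value pooled over each group of 3 (coloured ticks, values of 0 not drawn). The RNA regulators lie below the median of all genes, 1.06, and glh-1 and cpg-3 lie at the top, at 6.81 and 5.92.

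The RNA regulators had few footprints for their RNA. All 14 lay below the median of all genes, from 0.0379 for nos-2 to 0.903 for mex-3, with a group median of 0.447. Messenger RNA of nos-2, a Nanos family regulator of the primordial germ cells, was present in every RNA library at 38.8 to 89.7 CPM, yet gave 2 footprints against 2332 RNA counts in all, with 10 of 12 lysates at 0 footprints. Its ratio of 0.0379 carries a 95% counting interval (exact Poisson, on the footprints) of 0.00459 to 0.137. Next came spn-4, an RNA-binding protein needed for the early cleavages, at 0.137 (interval 0.109 to 0.169) from 85 footprints and 24568 RNA counts. The zinc finger protein gene pos-1 stood at 0.211, the STAR protein gene gld-1 at 0.292, mex-6 at 0.295 and puf-5, a PUF protein of the oocyte, at 0.364. The related mex-5 was at 0.415, oma-2 at 0.478, mex-1 at 0.527, pie-1 at 0.586, lin-41 at 0.588 and oma-1 at 0.645. These intervals cover counting error, and the ratios of single lysates scatter more widely, from 0.0543 to 0.61 in spn-4.

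The Notch receptor gene glp-1, which keeps germline stem cells dividing and is translated in the distal germline and again in the embryo, was at 0.15 (interval 0.116 to 0.191), below all but nos-2 and spn-4. The yolk receptor gene rme-2, through which oocytes take up vitellogenin, was at 0.472. A group of 12 genes whose translation in the germline is known to be controlled (glp-1, nos-2, spn-4, meg-1, rme-2, oma-1, oma-2, puf-5, mex-3, pie-1, pos-1 and mex-1) had a median of 0.475 and all 12 were below the median of all genes. All but glp-1, meg-1 and rme-2 are RNA regulators already described above, so this is not a separate result. The other 27 had a median of 0.905, with 16 below. They include the RNA regulators gld-1, mex-5, mex-6 and lin-41, and are not a set of uncontrolled messages.

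Eggshell genes covered nearly the whole range. The chitin synthase gene chs-1 stood at 0.208 and cbd-1, a chitin-binding protein of the outer eggshell, at 0.385, although cbd-1 held the highest RNA count of the 39 genes (135069 over 12 libraries). The permeability barrier gene perm-2 was at 0.701 and its neighbour perm-4 at 3.22 (interval 3.11 to 3.33). The chondroitin proteoglycan genes were at 0.884 (cpg-1), 1.79 (cpg-2) and 5.92 (cpg-3, interval 5.7 to 6.14). Genes for sperm-egg interaction and egg activation lay closer together, from 0.479 for egg-6 to 1.16 for egg-4, with 6 of 7 below the median of all genes. The ratios of egg-4 and egg-5 are uncertain, since most of the coding sequence of each recurs in the other.

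Germ granule genes stood higher, with a median of 1.85 and 4 of 5 above the median of all genes. The P granule helicase gene glh-1 had the highest ratio of the 39, 6.81 (interval 6.5 to 7.12), and between 3.55 and 9.89 in the single lysates. The related helicase gene glh-4 was at 3.17, pgl-3 at 1.85 and pgl-1 at 1.29. The storage granule genes car-1 and cgh-1, the latter a DEAD-box helicase that protects stored maternal RNA, were at 2.45 and 1.49, and the Y-box genes cey-3 and cey-2 at 1.77 and 0.905. The genes with the STAR-type hexamer had a median of 0.562 and the genes without it 0.903, against 0.999 and 1.07 among all genes. For the PUF-type motif the medians were 0.645 with and 0.925 without, against 0.982 and 1.12 among all genes. Low ratios were also found in genes with no hexamer in the window searched after the stop codon, namely nos-2, glp-1, chs-1, pos-1 and gld-1. Bases beyond that window were not searched, so these genes may hold the hexamer further on.

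The coding sequences of the 39 genes were longer and richer in G and C than those of other genes, with a median of 524 codons against 404 over 10685 genes and 48.4% GC against 43.7%, and only 2 of the 39 lay below the GC median. Leucine made up 6.79% of their codons (median) against 8.38%, and the leucine codon UUG 1.39% against 1.84%. Proline made up 5.44% against 4.52%, with 14 of the 39 below the median of all genes. Stretches shared with other genes were short for most: of the 28-base windows of the coding sequence, 9.34% in puf-11, 8.6% in cpg-3 and 10.9% in glh-1 recurred elsewhere. The paralogues egg-4 and egg-5 shared 79.7% of such windows, so the split of reads between them is uncertain. The paper kept uniquely aligned footprint reads and does not state this for RNA reads, so footprints from shared windows may be missing.

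Of the 28 genes with enough footprints for the test, 1 was called between genotypes, perm-2, which encodes a protein needed for the permeability barrier of the eggshell. In 20 °C worms its footprints were 978, 904 and 739 CPM in noNSUN and 369, 268 and 214 CPM in wild type. All 3 noNSUN values lay above all 3 wild type values, with means of 874 ± 122 and 283 ± 78.6 CPM (SD, n = 3). At 27 °C the values were 325, 248 and 786 CPM in noNSUN and 245, 584 and 532 CPM in wild type, and the genotypes overlapped. The stretch of codons 1 to 80 of perm-2 is shown because it is the shortest of the 39 (203 codons), has the highest GC content (56.3%) and holds no UUG codon. It is spliced from 2 exons, with its 4 leucine codons in capitals of 8 in the whole coding sequence (CTT 4, CTG 3, TTA 1).
perm-2 (chrIV:1126801-1127874, + strand): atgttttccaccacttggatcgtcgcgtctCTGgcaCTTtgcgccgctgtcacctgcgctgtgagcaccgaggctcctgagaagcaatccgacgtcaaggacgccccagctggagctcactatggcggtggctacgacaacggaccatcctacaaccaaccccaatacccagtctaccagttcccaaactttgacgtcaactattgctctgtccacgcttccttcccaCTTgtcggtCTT
The next is oma-2, a zinc finger gene needed for oocyte maturation, codons 158 to 237, likewise from 2 exons, with 4 UUG codons (written TTG) in capitals. This stretch was chosen as the first of its length with the most UUG codons, which make up 2.54% of all codons of oma-2. Of the 35 leucine codons of oma-2, 10 are TTG and 15 are CTT.
oma-2 (chrV:8030120-8030404, + strand): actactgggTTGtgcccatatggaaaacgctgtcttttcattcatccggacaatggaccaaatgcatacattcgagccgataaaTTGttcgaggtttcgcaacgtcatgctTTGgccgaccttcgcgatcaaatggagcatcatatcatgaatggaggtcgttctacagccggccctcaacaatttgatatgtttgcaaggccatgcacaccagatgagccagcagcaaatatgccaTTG

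In edgeR's quasi-likelihood test, footprints of perm-2 rose in noNSUN at 20 °C by 1.68 on the log2 scale (SE 0.349, 3.2-fold, adjusted p = 0.0198), the only gene of the 28 tested that passed, where 1.42% of 1624 genes passed. The gene overlaps C44B12.6 on the opposite strand, and the strand setting of the counts is not stated. Its RNA did not pass the same test and overlapped between genotypes, at 354, 772 and 827 CPM in wild type and 812, 725 and 747 CPM in noNSUN. The call was lost with an offset for length and GC content (log2 fold change 1.25, adjusted p = 0.0688). It was also lost when 1 of 3 libraries was left out, with adjusted p = 0.104 without wild type 20 °C replicate 2, 0.144 without noNSUN 20 °C replicate 1 and 0.0522 without noNSUN 20 °C replicate 2, while the fold change stayed between 1.57 and 1.87 over all omissions. The 6 hypodermis markers moved in the same comparison, from 1251 to 1603 CPM of footprints in wild type to 2418 to 3131 CPM in noNSUN, with 1 of 6 at 0 in every footprint library, and their part in the result was not tested.

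Footprints of oma-2 were 374, 435 and 313 CPM in noNSUN at 20 °C and 164, 116 and 198 CPM in wild type. The groups did not overlap, but the difference of 1.31 on the log2 scale missed the threshold (SE 0.363, adjusted p = 0.0625). The Y-box gene cey-2, whose protein binds maternal RNA, had 1594, 974 and 853 CPM in noNSUN and 676, 420 and 702 CPM in wild type. Its log2 difference was 1.01 (adjusted p = 0.0911), and it passed without wild type 20 °C replicate 1 (2.61% of genes did). Of the 28 genes tested, 8 had all noNSUN values above all wild type values at 20 °C (perm-2, cpg-1, oma-2, puf-5, glh-4, cgh-1, cey-2 and cey-3), against 9.91% of all genes, and pgl-1 alone had them all below, against 9.48%. The storage helicase gene cgh-1 is an example, at 2221, 2052 and 1991 CPM in noNSUN and 1208, 1367 and 1496 CPM in wild type, and it did not pass the test (log2 difference 0.62, adjusted p = 0.117). The median log2 difference was 0.19 over the 28 genes and -0.03 over all genes, but 0.02 without wild type 20 °C replicate 1 (17 positive and 15 negative of the 32 genes then tested) and 0.08 without replicate 1 of all groups. At 27 °C no gene of the 28 passed between genotypes in edgeR or DESeq2 (background 0.0616%), with 1 at an unadjusted p under 0.05, glh-4, against 123 of all 1624 genes. There glh-1 and glh-4 had all noNSUN values higher (background 7.7%), and cpg-3 and rme-2 all values lower (background 5.91%).

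**Figure D2:**
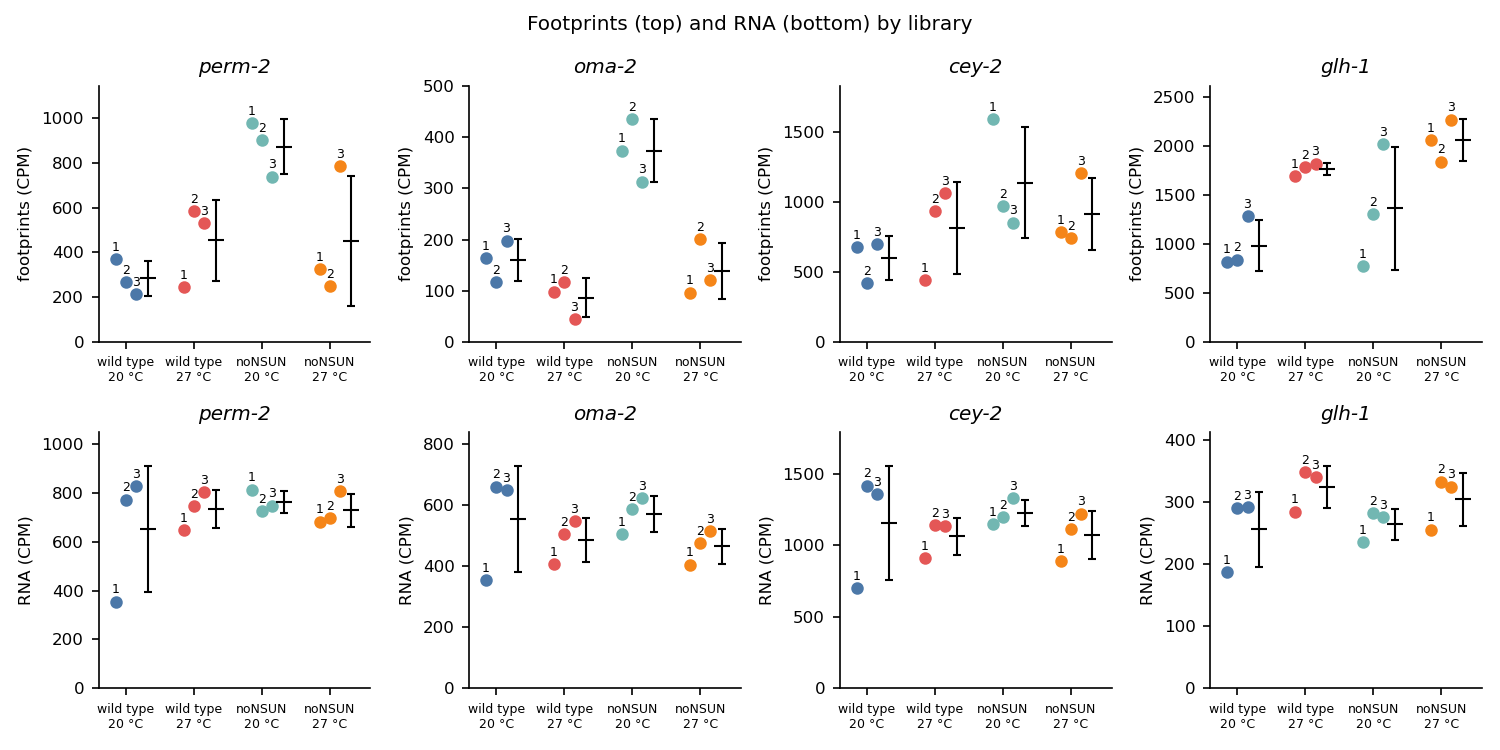
Footprint CPM (top) and RNA CPM (bottom) of perm-2, oma-2, cey-2 and glh-1 in each of the 12 lysates, by genotype and temperature, with replicate numbers, group means and SD (n = 3). The 3 noNSUN 20 °C points of perm-2, at 739 to 978 CPM, lie above the 3 wild type 20 °C points, at 214 to 369 CPM.

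Heat lowered footprints of perm-2 and oma-2 in noNSUN worms. From the values above, oma-2 went from 374 ± 61 CPM (SD, n = 3) at 20 °C to 96.2, 201 and 121 CPM at 27 °C, with no overlap, and fell by 1.31 on the log2 scale (SE 0.333, adjusted p = 0.0212, edgeR). Footprints of perm-2 fell by 1.27 on the log2 scale (SE 0.331, adjusted p = 0.0232), although its highest 27 °C value of 786 CPM reached into the 20 °C range. These were the only 2 of the 28 genes that passed, against 3.33% of all genes. DESeq2 called neither (adjusted p = 0.0868 for oma-2 and 0.12 for perm-2). Leaving out noNSUN 20 °C replicate 1, noNSUN 20 °C replicate 2 or noNSUN 27 °C replicate 1 ended both calls (oma-2 at 0.11, 0.132 and 0.164, perm-2 at 0.151, 0.108 and 0.0965), and leaving out noNSUN 27 °C replicate 2 ended that of perm-2 (0.22). In wild type the oma-2 footprints were 97.9, 117 and 44.3 CPM at 27 °C against 164, 116 and 198 CPM at 20 °C, a log2 difference of -0.69 that did not pass.

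The response to heat was also compared between genotypes through the interaction term. For perm-2 it was -1.81 on the log2 scale (adjusted p = 0.611, edgeR) and for oma-2 -0.62 (adjusted p = 0.948), and neither passed. Without replicate 1 of all 4 groups that of perm-2 was -2.36 and passed (adjusted p = 0.0131), and in the other alternatives it did not. With all libraries, none of the 39 genes passed the interaction test in RNA. None of the 28 tested in footprints and in footprints per RNA passed there, and none of all the genes tested did (background 0%). DESeq2 called none of these genes either. At an unadjusted p under 0.05 there were 0 of the 39 in RNA, against 124 of 10815 genes. There were 2 of 28 (7.14%) in footprints, against 5.11% of genes, and 3 of 28 (10.7%) in footprints per RNA, against 7.44%.

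Across the 28 genes the footprint change with heat had a median of -0.36 in noNSUN (22 of 28 negative) and -0.24 in wild type (21 of 28 negative), against 0.01 and 0.00 over all genes. Without wild type 20 °C replicate 1 the wild type median was -0.41, and without replicate 1 of all groups it was -0.12. In noNSUN, 8 genes had every 27 °C value below every 20 °C value (cbd-1, cpg-1, chs-1, oma-1, oma-2, puf-5, gld-1 and cgh-1), against 11.3% of all genes, and pgl-3 had every value above, against 10.4%. In wild type, egg-2, egg-6 and pgl-1 lay wholly below (background 7.2%) and glh-1 wholly above (background 6.83%). Footprints of glh-1 were 819, 839 and 1282 CPM at 20 °C, against 1693, 1781 and 1817 CPM at 27 °C in wild type, a log2 difference of 0.85 that did not pass (adjusted p = 0.174). In noNSUN they were 770, 1304 and 2019 CPM at 20 °C, against 2061, 1838 and 2267 CPM at 27 °C, and overlapped. No gene of the 28 passed in wild type in edgeR or DESeq2, against 1.29% of all genes. At an unadjusted p under 0.05 there were 4, chs-1, glh-1, egg-6 and egg-2, against 169 of 1624 genes (10.4%). The intestine markers, which include the vitellogenins that rme-2 takes up, summed to 59104 to 102841 CPM of wild type footprints at 20 °C and 42781 to 65725 CPM at 27 °C, and to 85213 to 103000 and 33605 to 60944 CPM in noNSUN, and their part in these changes was not tested.

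The change in footprints per RNA was tested as an interaction of assay and condition in 1 model over the 24 libraries. Over all libraries and without a term for the shared lysate, no gene of the 28 passed in any comparison in edgeR or DESeq2. In edgeR 0.375% of 1599 genes passed for genotype at 20 °C and 0% in the other comparisons. At an unadjusted p under 0.05 there were 4 of the 28 for heat in wild type (against 5.38% of all genes), 5 for heat in noNSUN (11.5%), 5 for genotype at 20 °C (16.1%) and 1 at 27 °C (5.82%). With that term, footprints per RNA rose in noNSUN at 20 °C for perm-2 by 1.47 on the log2 scale (SE 0.338, adjusted p = 0.0131) and for oma-2 by 1.39 (SE 0.361, adjusted p = 0.0265), where 1.44% of 1599 genes passed. Without it the values were 1.47 (adjusted p = 0.132) and 1.30 (adjusted p = 0.145). With neither that term nor wild type 20 °C replicate 1, perm-2, oma-2, cey-2 and mex-5 passed for this comparison. They were 4 of the 32 genes then tested, where 2.18% of all genes passed. With heat in noNSUN, footprints per RNA of perm-2 fell by 1.23 with the lysate term (adjusted p = 0.0217, 1.13% of genes called) and the value without it was -1.30 (adjusted p = 0.279). For oma-2 the fall with heat in noNSUN did not pass with the lysate term alone (-1.02, adjusted p = 0.107). Both calls of perm-2 were lost when an offset for length and GC content was added to the lysate term (adjusted p = 0.119 for genotype and 0.0581 for heat). With that offset oma-2 passed in both (1.49, adjusted p = 0.0404, and -1.15, adjusted p = 0.047). Pooled over the lysates of a group, the ratio of perm-2 was 1.53 in noNSUN at 20 °C and 0.519 to 0.633 in the other 3 groups. The pooled ratio of oma-2 was 0.893 in noNSUN at 20 °C and 0.267 to 0.482 in the others. In single lysates at 20 °C perm-2 overlapped, at 1.53, 1.59 and 1.26 in noNSUN and 1.32, 0.441 and 0.328 in wild type. At 27 °C perm-2 was at 0.605, 0.454 and 1.24 in noNSUN and 0.48, 0.995 and 0.844 in wild type. The single lysates of oma-2 at 20 °C did not overlap, at 0.996, 0.998 and 0.678 in noNSUN and 0.625, 0.236 and 0.412 in wild type.

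The gene meg-1, which encodes a disordered protein that shapes P granules in the embryo, was picked out after its values were seen. It has too few footprints for the filtered test. Its footprints were 205, 146 and 222 CPM at 27 °C, against 41, 94.0 and 107 CPM at 20 °C in wild type. They were 90.1, 136 and 121 CPM at 27 °C, against 44.0, 34.8 and 0 CPM at 20 °C in noNSUN. In both genotypes every 27 °C library lay above every 20 °C library, from counts of 0 to 55 per library. Its RNA was at 141, 151 and 170 CPM at 27 °C, against 108, 197 and 198 CPM at 20 °C in wild type, and at 121, 169 and 154 against 164, 202 and 216 CPM in noNSUN, and the temperatures overlapped in both genotypes. Pooled footprints per RNA were 0.651 at 20 °C and 1.61 at 27 °C in wild type, and 0.21 and 1.04 in noNSUN.

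**Figure D3:**
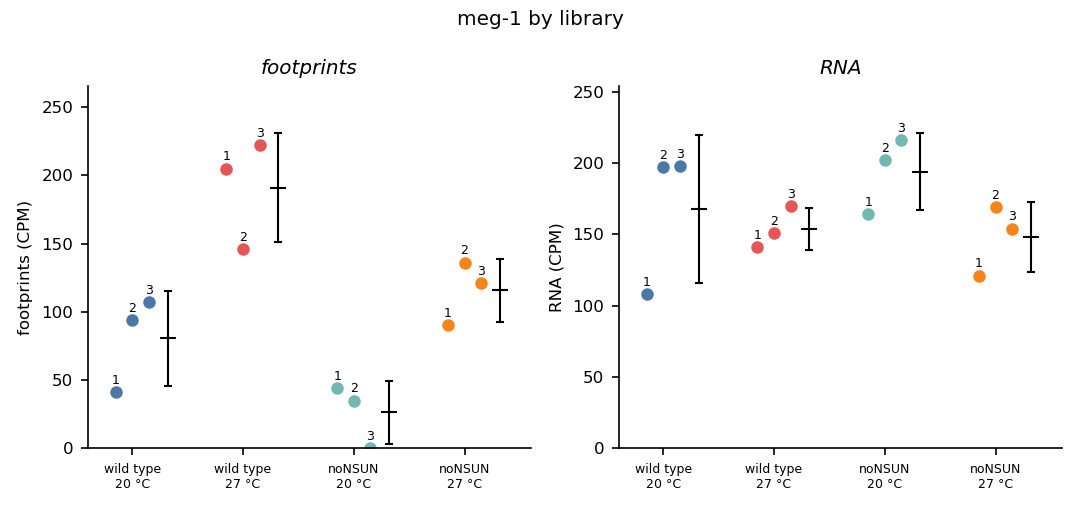
Footprint CPM (left) and RNA CPM (right) of meg-1 in each library, by genotype and temperature, with replicate numbers, group means and SD (n = 3). The footprint points at 27 °C, 90.1 CPM and above in noNSUN and 146 CPM and above in wild type, lie above those at 20 °C of the same genotype, and the RNA points overlap.

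In a fit with no filter on low counts, the footprint difference of meg-1 with heat was 0.99 on the log2 scale in wild type (adjusted p = 0.868, edgeR) and 1.98 in noNSUN (adjusted p = 0.209). That of footprints per RNA was 1.16 (adjusted p = 0.903) and 2.46 (adjusted p = 0.252). None passed. Over the 13 fits that held it, footprints per RNA in noNSUN ranged from 1.84 to 2.95, and passed in 1 of them, without wild type 20 °C replicate 1 (adjusted p = 0.0422). None of the 11 genes outside the filtered footprint test (egg-3, egg-4, egg-5, glp-1, pos-1, mex-1, mex-6, spn-4, pie-1, nos-2 and meg-1) passed in any footprint comparison of the unfiltered fit.

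In the fits over all 12 libraries few of the 39 RNAs changed with heat, and those with the largest rise in both genotypes were egg-5 and egg-4, near-identical pseudophosphatase genes that act with egg-3 at egg activation and between which reads cannot be split with certainty. All 39 passed the filter on low counts. RNA of egg-5 was 77.5, 143 and 133 CPM at 20 °C, against 178, 218 and 187 CPM at 27 °C in wild type, and 118, 132 and 144 against 173, 197 and 216 CPM in noNSUN. RNA of egg-4 was 59.4, 94.3 and 99.8 CPM at 20 °C, against 100, 131 and 123 CPM at 27 °C in wild type, and 68.6, 84.1 and 88.2 against 98.6, 107 and 124 CPM in noNSUN. These were the only 2 genes whose 27 °C values all lay above the 20 °C values, and they did so in both genotypes, against 6.84% of genes in wild type and 9.57% in noNSUN.

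Without a replicate term, no gene of the 39 passed for heat in either genotype in edgeR's test (0.943% and 1.05% of 10815 genes did). At an unadjusted p under 0.05 there were 3 of the 39 in wild type and 4 in noNSUN, against 1055 and 983 of all genes. DESeq2 called egg-5 in wild type. With the replicate number as a block, egg-5 rose by 0.75 on the log2 scale in wild type (adjusted p = 8.21e-04, against 0.72, SE 0.187 and adjusted p = 0.112 without the block). In the same blocked fit egg-4 rose by 0.50 (adjusted p = 0.00916), glh-1 by 0.36 (adjusted p = 0.0226) and egg-6, a leucine-rich repeat receptor gene, by 0.33 (adjusted p = 0.0361), where 4.24% of genes passed. These rises were smaller without wild type 20 °C replicate 1, at 0.48 (adjusted p = 0.0477) for egg-5, 0.26 (0.349) for egg-4, 0.14 (0.585) for glh-1 and 0.13 (0.589) for egg-6 with no block, so that egg-5 alone passed. With the block and without that library they were 0.56, 0.36, 0.23 and 0.21 and all 4 passed (adjusted p = 9.29e-06, 0.00923, 0.0288 and 0.0418). In noNSUN with the block, egg-5 rose by 0.58 (adjusted p = 0.00757) and egg-4 by 0.45 (adjusted p = 0.0187), and cgh-1 fell by 0.39 (adjusted p = 0.0341), where 4.11% of genes passed.

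**Figure D4:**
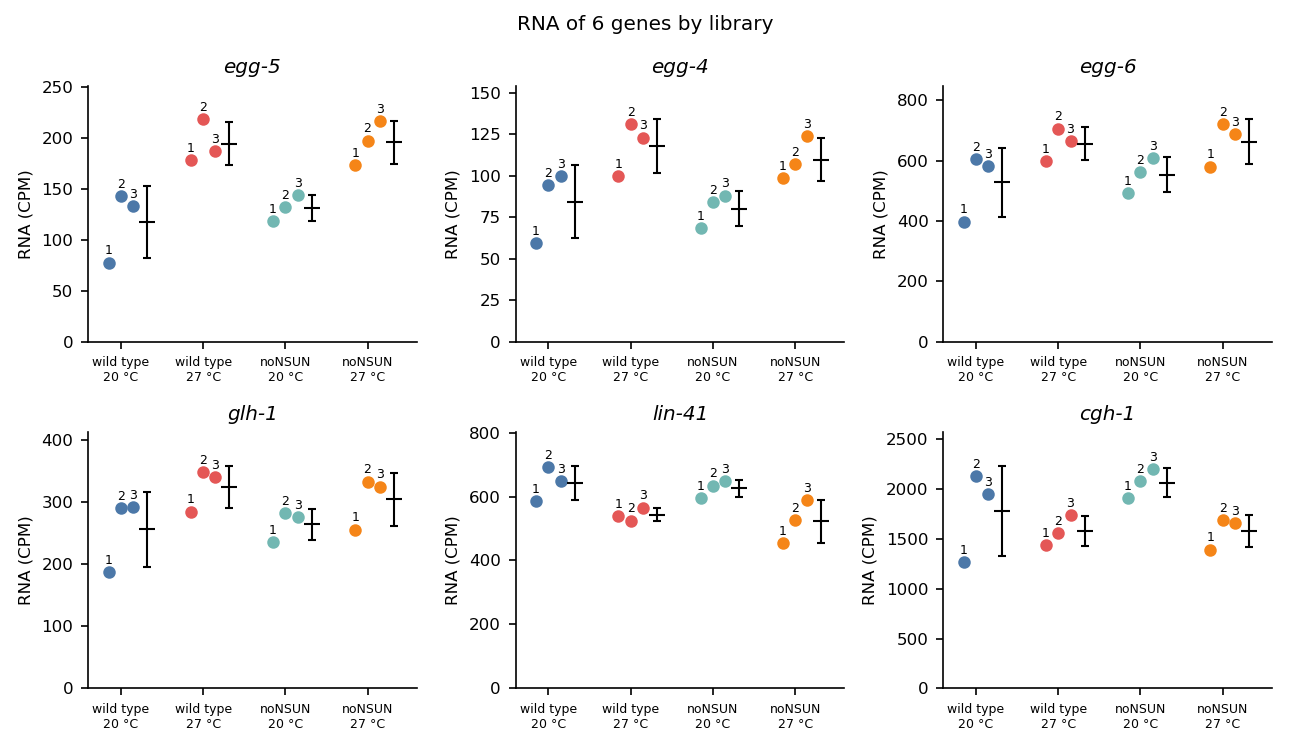
RNA CPM in each of the 12 libraries for egg-5, egg-4, egg-6, glh-1, lin-41 and cgh-1, by genotype and temperature, with replicate numbers, group means and SD (n = 3). The 27 °C points of egg-5, from 173 to 218 CPM, lie above its 20 °C points, from 77.5 to 144 CPM.

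RNA of egg-6 was 398, 606 and 582 CPM at 20 °C, against 598, 706 and 666 CPM at 27 °C in wild type, and 492, 563 and 608 against 580, 721 and 689 CPM in noNSUN. Its groups overlapped in both genotypes. RNA of glh-1 was 187, 290 and 292 CPM at 20 °C, against 285, 348 and 340 CPM at 27 °C in wild type, and 236, 282 and 276 against 256, 333 and 325 CPM in noNSUN, with overlap in both. RNA of cgh-1 was 1907, 2083 and 2197 CPM at 20 °C, against 1391, 1688 and 1657 CPM at 27 °C in noNSUN, with no overlap, and 1269, 2127 and 1947 against 1437, 1560 and 1738 CPM in wild type, where the values overlapped.

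The TRIM-NHL gene lin-41, which holds oocytes back from maturing, was at 586, 693 and 648 CPM at 20 °C, against 538, 525 and 565 CPM at 27 °C in wild type, and at 595, 634 and 648 against 454, 526 and 588 CPM in noNSUN. Every 27 °C value lay below every 20 °C value in both genotypes, and the log2 differences of -0.24 and -0.26 did not pass over all libraries (adjusted p = 0.469 and 0.454). It was the only such gene in wild type (background 6.05%), and in noNSUN the kinase gene mbk-2, cgh-1 and car-1 did likewise (background 9.32%). RNA of the PUF gene puf-11 was 204, 335 and 347 CPM at 20 °C, against 342, 383 and 403 CPM at 27 °C in wild type, and 291, 294 and 326 against 303, 414 and 425 CPM in noNSUN. Its groups overlapped in both genotypes and the differences of 0.35 and 0.33 did not pass.

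The median heat response of the 39 genes was 0.02 in wild type and -0.09 in noNSUN, on the log2 scale. It depended on wild type 20 °C replicate 1: without that library the wild type median was -0.22 with 31 of 39 negative, and egg-5 passed (2.24% of genes did). Without replicate 1 of all 4 groups, 11 of the 39 passed in wild type, with egg-4 and egg-5 higher and cey-2, cgh-1, gld-1, lin-41, mex-3, oma-2, pos-1, meg-1 and car-1 lower (5.52% of genes passed). In noNSUN 8 then passed, with egg-4, egg-5, egg-6 and puf-11 higher and cgh-1, gld-1, oma-2 and meg-1 lower (5.55% of genes).

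With the block and without wild type 20 °C replicate 1, a fit chosen after the data were seen, 19 of the 39 passed in wild type, 4 higher and 15 lower, with a median of -0.14 (8.3% of 10950 genes passed). The 15 lower were car-1, cey-2, cgh-1, cpg-3, egg-3, gld-1, lin-41, meg-1, mex-3, mex-6, oma-2, perm-4, pos-1, puf-5 and spn-4, 8 of them RNA regulators, with mex-3 at -0.39 (adjusted p = 0.000202) and oma-2 at -0.36 (adjusted p = 0.000192). In noNSUN 19 passed in that fit too, with egg-4, egg-5, egg-6, glh-1, puf-11 and chs-1 higher and 13 lower (median -0.10, 11.4% of genes passed), among them cgh-1 at -0.40 (adjusted p = 1.13e-06) and oma-2 at -0.31 (adjusted p = 0.000183). None of the 39 passed between genotypes or for the interaction in it, with 7 at an unadjusted p under 0.05 for genotype at 20 °C and 0 at 27 °C and for the interaction. DESeq2 was not run on this fit.

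Of other germline genes in the blocked fit over all libraries, puf-3 rose (0.41 in wild type and 0.36 in noNSUN) and cpb-3 fell (-0.37 and -0.33) in both genotypes among 24 further RNA regulators, none of 18 other germ granule and small RNA genes and none of 12 meiotic chromosome genes passed, and gfat-1 alone rose among 6 chitin and chondroitin genes tested.

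No RNA of the 39 genes passed the test between genotypes. This held at 20 °C or at 27 °C in edgeR's test, with or without the replicate block (0.0832% and 0.0277% of genes passed without it, 1.48% and 0.213% with it), and DESeq2 called none. At an unadjusted p under 0.05 there was none without the block and 2 at 20 °C with it (against 4.54% and 13% of all genes at 20 °C), and for no gene were the genotypes free of overlap, where 4.37% of all genes were wholly higher and 4.03% wholly lower in noNSUN at 20 °C, and 4.65% and 4.38% at 27 °C. At 20 °C the log2 difference was positive for 34 of 39 genes, with a median of 0.08, but without wild type 20 °C replicate 1 it was negative for 38 of 39, with a median of -0.13. Likewise the interaction of heat and genotype was negative for 38 of 39 genes (median -0.09) and without that library positive for 36 (median 0.12).

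More of the 39 RNAs passed for the replicate number than for heat or genotype. RNA of 35 of the 39 genes differed between replicate numbers in edgeR's test with 2 degrees of freedom, all 35 lower in replicate 1, where 29.5% of 10815 genes passed, 12% of them lower and 17.5% higher. Those that did not pass were glh-4, perm-2, perm-4 and lin-41. Replicate 1 held the lowest value in all 4 groups for 34 of the 39 genes, against 14.5% of all genes. What the replicate numbers stand for beyond biological replicates is not stated in the labels.

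**Figure D5:**
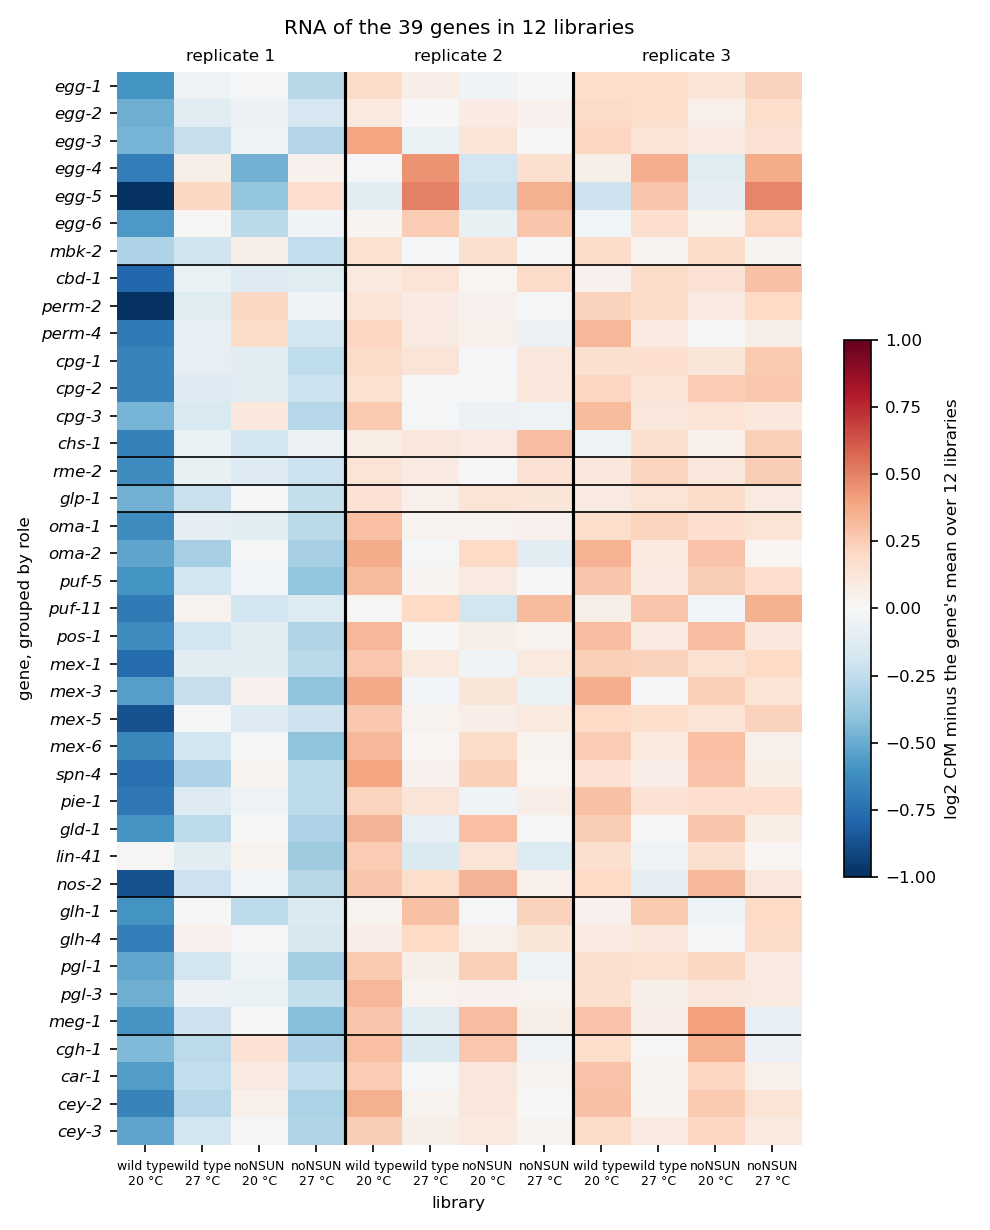
RNA of the 39 genes in each of the 12 libraries, as log2 CPM minus the gene's mean log2 CPM, with genes by role and libraries by replicate number, and with colours clipped at 1 and -1. Replicate 1 of each group is lower than replicates 2 and 3 for most genes, most of all in wild type at 20 °C.

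The smallest adjusted p in this test belonged to glh-1 (-0.37 on the log2 scale for replicate 1 against the others, adjusted p = 0.00175), whose values are given above. RNA of pgl-1, a P granule scaffold gene and the most abundant germ granule gene per length, was 292, 502 and 469 CPM in wild type at 20 °C, 406, 495 and 483 CPM in noNSUN at 20 °C, 369, 438 and 466 CPM in wild type at 27 °C, and 329, 404 and 444 CPM in noNSUN at 27 °C (-0.41, adjusted p = 0.00186). RNA of oma-2 was 353, 660 and 648 CPM, 505, 586 and 621 CPM, 405, 504 and 546 CPM, and 404, 474 and 515 CPM in the same order of groups (-0.45, adjusted p = 0.00246). The first value of each group, replicate 1, was the lowest for each of these genes.

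RNA of glp-1 was 289, 446 and 428 CPM, 398, 442 and 456 CPM, 345, 417 and 443 CPM, and 342, 438 and 428 CPM in that order (-0.35, adjusted p = 0.00283). RNA of mex-6, a polarity gene of the zygote, was 266, 523 and 496 CPM, 412, 473 and 512 CPM, 364, 421 and 445 CPM, and 315, 426 and 431 CPM (-0.46, adjusted p = 0.00318). RNA of cpg-2 was 1400, 2474 and 2581 CPM, 2048, 2228 and 2660 CPM, 2033, 2239 and 2435 CPM, and 1920, 2412 and 2691 CPM (-0.42, adjusted p = 0.00329). Each again had its lowest value in replicate 1 of every group.

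The most abundant genes of the other roles showed the same order of libraries. RNA of cpg-1, the most abundant of the 39 per kb of exons, was 1672, 3032 and 2964 CPM, 2464, 2616 and 2889 CPM, 2510, 2898 and 2987 CPM, and 2223, 2876 and 3182 CPM in the order given above. RNA of cey-2 was 699, 1417 and 1357 CPM, 1150, 1198 and 1331 CPM, 912, 1140 and 1134 CPM, and 890, 1111 and 1221 CPM. RNA of pos-1 was 412, 799 and 787 CPM, 586, 663 and 786 CPM, 555, 633 and 675 CPM, and 516, 651 and 686 CPM. In these 3 genes replicate 1 was lowest in every group, and the gap was widest in wild type at 20 °C. RNA of rme-2 was 844, 1430 and 1396 CPM, 1188, 1293 and 1397 CPM, 1236, 1375 and 1512 CPM, and 1118, 1439 and 1543 CPM. RNA of egg-1, a sperm-binding receptor gene of the oocyte surface, was 363, 625 and 622 CPM, 544, 537 and 600 CPM, 530, 574 and 622 CPM, and 454, 552 and 646 CPM. Replicate 1 was lowest in every group for rme-2, and in 3 of 4 groups for egg-1.

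Over the 39 genes, the value of replicate 1 relative to the mean of replicates 2 and 3 had a median of 0.563 in wild type at 20 °C, 0.887 in noNSUN at 20 °C, 0.856 in wild type at 27 °C and 0.78 in noNSUN at 27 °C. Without wild type 20 °C replicate 1, 34 of the 39 still passed, with a median of -0.25 on the log2 scale in place of -0.39 (20.9% of genes passed). Muscle markers moved the opposite way in each group, with 9256 CPM in replicate 1 against 4674 and 5129 CPM in wild type at 20 °C, 5867 against 4658 and 4811 CPM in noNSUN at 20 °C, 6232 against 4880 and 4733 CPM in wild type at 27 °C, and 5503 against 4344 and 5035 CPM in noNSUN at 27 °C. Intestine markers were lowest in replicate 1 of each group as well, with 50028 CPM against 95906 and 99841 CPM in wild type at 20 °C, 82895 against 88159 and 93466 CPM in noNSUN at 20 °C, 56525 against 64873 and 67832 CPM in wild type at 27 °C, and 54057 against 66978 and 74959 CPM in noNSUN at 27 °C. Neuron markers were highest in replicate 1 of each group, from 293 against 187 and 184 CPM in wild type at 20 °C to 212 against 194 and 203 CPM in noNSUN at 20 °C. Hypodermis markers were lowest in replicate 1 of each group, at 756 against 891 and 978 CPM in wild type at 20 °C and 563 against 566 and 685 CPM in wild type at 27 °C. None of the muscle, intestine, neuron and hypodermis markers was at 0 in every RNA library, and their part in the result was not tested. Other germline lists were lower in replicate 1 as well, with 16 of 24 further RNA regulators, 13 of 18 germ granule and small RNA genes and 7 of 12 meiotic chromosome genes lower and none higher, and 5 of 6 chitin and chondroitin genes lower with 1 higher. In footprints no gene of the 28 passed for the replicate number in edgeR's test (smallest adjusted p = 0.378), 3 had an unadjusted p under 0.05, and 0.493% of 1624 genes passed. Replicate 1 was lower than the others for 23 of the 28, with a median of -0.23 on the log2 scale against 0.02 over all genes. The summed footprints of the 39 genes were lowest in replicate 1 of every group, at 19251 against 28378 and 27156 CPM in wild type at 20 °C, 26726 against 27393 and 27817 CPM in noNSUN at 20 °C, 20754 against 25402 and 26457 CPM in wild type at 27 °C, and 20883 against 24424 and 25001 CPM in noNSUN at 27 °C.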

How the data were processed

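Total RNA and ribosome footprints of 12 lysates gave 24 libraries. The deposited values are raw read counts per gene, which the authors made by trimming (Trimmomatic 0.39), removal of ribosomal reads, alignment to WBcel235 with HISAT2 2.1.0 and counting with HTSeq, for footprints on in-frame reads within the longest coding sequence; the strand setting is not given in the sources used here. Growth and RNA interference steps of other experiments in the labels were not used. Genes were tested with edgeR 4.0.16 (R 4.3.3; TMM scaling, minimum count 10, quasi-likelihood test, Benjamini-Hochberg adjusted p under 0.05 over all genes), with all 12 libraries of an assay in 1 fit, after tests on simulated data. DESeq2 1.42.0 was an alternative, and a blocked RNA fit without wild type 20 °C replicate 1 was added after the values were seen. Deviations of same-numbered RNA libraries from their group means correlated (mean r = 0.367 over 18 pairs), and those of footprints hardly did (0.074). The mean over the 36 other RNA pairs (-0.173) is no separate evidence, because deviations from a group mean cancel within the group. RNA replicate numbers were taken as paired in the blocked fits, and the main fits held no replicate term. Each p-value sets a difference against the spread between these samples. CPM use TMM-scaled totals, and motifs, lengths and sequences come from Ensembl gene models on the RefSeq assembly. Named were the genes called, the 6 with the smallest adjusted p for heat and replicate number in RNA, and the most abundant gene per length of each role. The 39 genes, the gene and marker lists and these rules were chosen with earlier results of these data known.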

Additional observations from a re-analysis of the deposited data

How the results depend on the processing

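Of 649 alternatives over 31 single-gene results, 569 stayed on the same side of the threshold, 21 lost a call, 59 gained one and none reversed. The number of the 39 genes called for heat in RNA of wild type, 0, became 1 with DESeq2, 1 with a length and GC offset, 4 with the replicate block and 9 with both block and offset; for noNSUN, 0 became 1 with only the groups compared, 3 with the block and 8 with block and offset. With the block and without wild type 20 °C replicate 1, which was added after seeing the data, 19 and 19 were called. Since same-numbered RNA libraries correlated and the main fits held no replicate term, block values stand beside the RNA results above. Footprint libraries come from the same numbered lysates, and same-numbered ones correlated weakly (mean r = 0.074, above 0.1 in 7 of 18 pairs). In footprints the block gave 1 gene for heat in wild type (glh-1, 0.91, adjusted p = 0.0311 in edgeR), and 1 with the offset too, against 0 without the block. For genotype at 20 °C the block gave 3 (perm-2, oma-2 and cey-2), and 4 with the offset too. The offset alone gave 0 there in place of 1. For heat in noNSUN footprints, 2 became 0 with DESeq2, 0 without the low-count filter and 4 with block and offset. Footprints per RNA went from 0 to 1 for heat in noNSUN and to 2 for genotype at 20 °C with the lysate block, and to 1 and 1 with the offset too (oma-2 in both, with perm-2 lost). Leaving out libraries moved the calls between 0 and 11 (RNA, heat in wild type), 0 and 8 (RNA, heat in noNSUN), 0 and 3 (footprints, heat in noNSUN), 0 and 2 (footprints, genotype at 20 °C), 0 and 1 (footprints, interaction), 0 and 2 (footprints per RNA, heat in noNSUN), 0 and 4 (genotype at 20 °C) and 0 and 1 (interaction), and for the replicate number between 32 and 38 of the 39 (35 with all libraries). The interaction call was perm-2 without replicate 1 of all groups. The cause was not tested in any of these.

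Over all genes, calls ranged over the alternatives from 8 to 909 around 102 (RNA, heat in wild type), 13 to 1245 around 114 (heat in noNSUN), 0 to 184 around 9 (genotype at 20 °C), 0 to 176 around 3 (at 27 °C) and 0 to 13 around 0 (interaction). In footprints they ranged from 10 to 38 around 21, 26 to 136 around 54, 0 to 54 around 23, 0 to 6 around 1 and 0 to 7 around 0 in the same order, and in footprints per RNA from 0 to 6 around 0, 0 to 23 around 0, 0 to 42 around 6, 0 to 4 around 0 and 0 to 11 around 0. Depth limits the footprint results: between 1 and 27 of the 39 genes had under 10 counts in a footprint library, and 11 could not be tested with the filter.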
